A study of Mus musculus with 12 samples.

Results

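The genes described here are 39 developmental regulators of tissues other than blood, taken as a listed set of transcription factors that specify neural, neural crest, muscle, heart, limb, endodermal and sensory tissues. Each gene was represented by the probe set that carried its symbol alone and had the highest mean over all arrays. This gave values for 38 of the 39 genes, among 18193 genes measured, and Pax2, a regulator of kidney, eye and ear, was not analysed here. Of the 38, 16 had 1 probe set and 22 had several, with 72 probe sets in all.

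Levels came from 12 Affymetrix arrays of total RNA from sorted cells of C57Bl/6 mice aged 10 to 12 weeks. Multipotent progenitors (MPP, 3 arrays), which still form all blood lineages but renew themselves little, were marrow cells lacking lineage markers and CD150 and carrying cKit, Sca1 and Flk2/Flt3. PreMegE (4 arrays), precursors of megakaryocytes and red cells, were lineage-negative marrow cells with cKit and CD150 and without Sca1, CD105 and CD41. CD4+ T cells (2 arrays) were splenic and lacked CD8, B220 and Nk1.1, and haematopoietic stem cells (HSC, 3 arrays), the self-renewing source of all blood, were lineage-negative marrow cells with cKit, Sca1 and CD150 and without Flk2/Flt3. No genotype or treatment distinguished the groups. Arrays of PreMegE and of CD4+ T cells stem from earlier work of the same authors, so study and population cannot be told apart in comparisons across those sets, and tissue cannot be told apart from population for the T cells. No label ties replicates to separate animals, so p-values reflect only how far these samples spread. In bulk samples fewer cells of a type and less RNA per cell cannot be told apart.

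Transcription factors of this kind switch on the programme of a tissue, often from the embryo onwards, and in a cell of another lineage they are normally kept off. In stem cells many of their promoters are CpG-rich and carry the repressive Polycomb mark H3K27me3, alone or together with the active mark H3K4me3, a pairing known as bivalent chromatin. Polycomb repressive complexes deposit and read the repressive mark, and Trithorax proteins deposit the active one. Chromatin was not analysed here, and the values below are RNA levels.

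The labelled cell types carried genes that define them, though some of these were as high or higher in another population. Flt3 averaged 10.02 in MPP and 6.60 in HSC, Gata1 averaged 10.66 in PreMegE and 9.48 in HSC, and Cd3g averaged 10.97 in CD4+ T cells and 2.58 in HSC, all as log2 intensity. Procr, a surface protein of stem cells, averaged 8.50 in HSC, but with 8.04 in MPP it set these populations apart only a little. Slamf1, also listed for HSC, lay further apart between them, at 6.83 against 3.72, yet PreMegE reached 6.82 and CD4+ T cells 7.16. Of the genes listed for MPP, Dntt was like Flt3 highest there, at 11.92. Satb1 and Cd53 averaged 9.79 and 9.47 in MPP but 11.17 and 11.29 in CD4+ T cells. HSC replicates 2 and 3 stood apart in Xist, the RNA of the inactive X chromosome, at 2.45 and 2.59, against 12.04 on HSC replicate 1 and at least 10.91 on the arrays of the other populations. Comparisons with HSC therefore also set arrays of unlike Xist level against each other. The part of this in the differences below was not tested. The neutrophil granule gene Ngp reached 11.01 on the second HSC array and stood at 8.20 and 7.84 on its companions.

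Promoter windows show how the regulators differ in sequence. RefSeq windows of 300 bases on the GRCm38.p6 build, from 250 bases before to 50 after a transcription start, were at hand for 28 of the 39 genes. The 250 bases before the start are printed for Hnf4a, the regulator with the highest signal on any array, and for Lhx2. Those of Hnf4a lie at its distal and proximal starts on chr2:163506607-163506856 and chr2:163546905-163547154. Those of Lhx2 lie on chr2:38339031-38339280, and its window held the most CpG sites among regulators under the lower quartile on every array. All 3 lie on the plus strand, run 5′ to 3′, and have each CG dinucleotide in capitals.
Hnf4a distal start: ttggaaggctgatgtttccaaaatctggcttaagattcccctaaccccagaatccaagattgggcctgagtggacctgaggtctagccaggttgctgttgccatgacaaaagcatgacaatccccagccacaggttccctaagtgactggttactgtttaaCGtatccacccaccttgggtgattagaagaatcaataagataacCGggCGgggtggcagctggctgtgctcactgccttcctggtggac
Hnf4a proximal start: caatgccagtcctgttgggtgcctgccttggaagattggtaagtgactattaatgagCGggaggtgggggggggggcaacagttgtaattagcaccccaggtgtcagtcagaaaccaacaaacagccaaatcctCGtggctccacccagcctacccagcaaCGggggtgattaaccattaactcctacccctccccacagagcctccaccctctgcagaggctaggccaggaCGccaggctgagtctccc
Lhx2 start: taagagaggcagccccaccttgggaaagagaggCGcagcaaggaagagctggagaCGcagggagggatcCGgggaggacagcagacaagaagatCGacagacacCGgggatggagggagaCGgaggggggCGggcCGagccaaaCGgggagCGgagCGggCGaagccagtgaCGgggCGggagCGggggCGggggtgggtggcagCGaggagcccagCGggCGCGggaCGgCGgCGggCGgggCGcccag
The printed bases held 3 and 4 CG dinucleotides at the Hnf4a starts and 25 at the Lhx2 start.

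Log2 intensities were read against 2 marks on each array, the lower quartile and the median over all 18193 genes. Lower quartiles lay between 3.16 and 3.45 and medians between 4.65 and 5.04. Probe sets differ in how well they bind, so these marks place a gene's signal on an array and do not rank genes by amount of RNA. A gene under the lower quartile on all 12 arrays is called silent here, as a statement on signal. As a yardstick, genes of the T cell receptor complex averaged 2.58 (Cd3g), 3.59 (Cd3d) and 5.48 (Cd3e) in HSC, which do not carry the receptor. Genes of another cell type thus also lay above the lower quartile, and Cd3e lay above the median on every HSC array. A signal over either mark is therefore not by itself a sign of expression.

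Nearly all of the regulators were low in all 4 populations. Silent in this sense were 11 of the 38 (28.9%), against 2455 of all genes (13.5%). Under the median on every array were 36 of the 38 (94.7%), against 7354 of all genes (40.4%), and the exceptions were Hnf4a and Msx1. A further 20 regulators were under the lower quartile on some arrays, and 7 on none. The median over the regulators lay between 3.18 and 3.28 on the MPP arrays, between 3.10 and 3.43 on the PreMegE arrays, at 3.17 and 3.22 on the CD4+ T cell arrays and between 3.20 and 3.38 on the HSC arrays, close to each array's lower quartile. PreMegE replicate 3 had the lowest of these medians and also the lowest lower quartile.

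**Figure D1:**
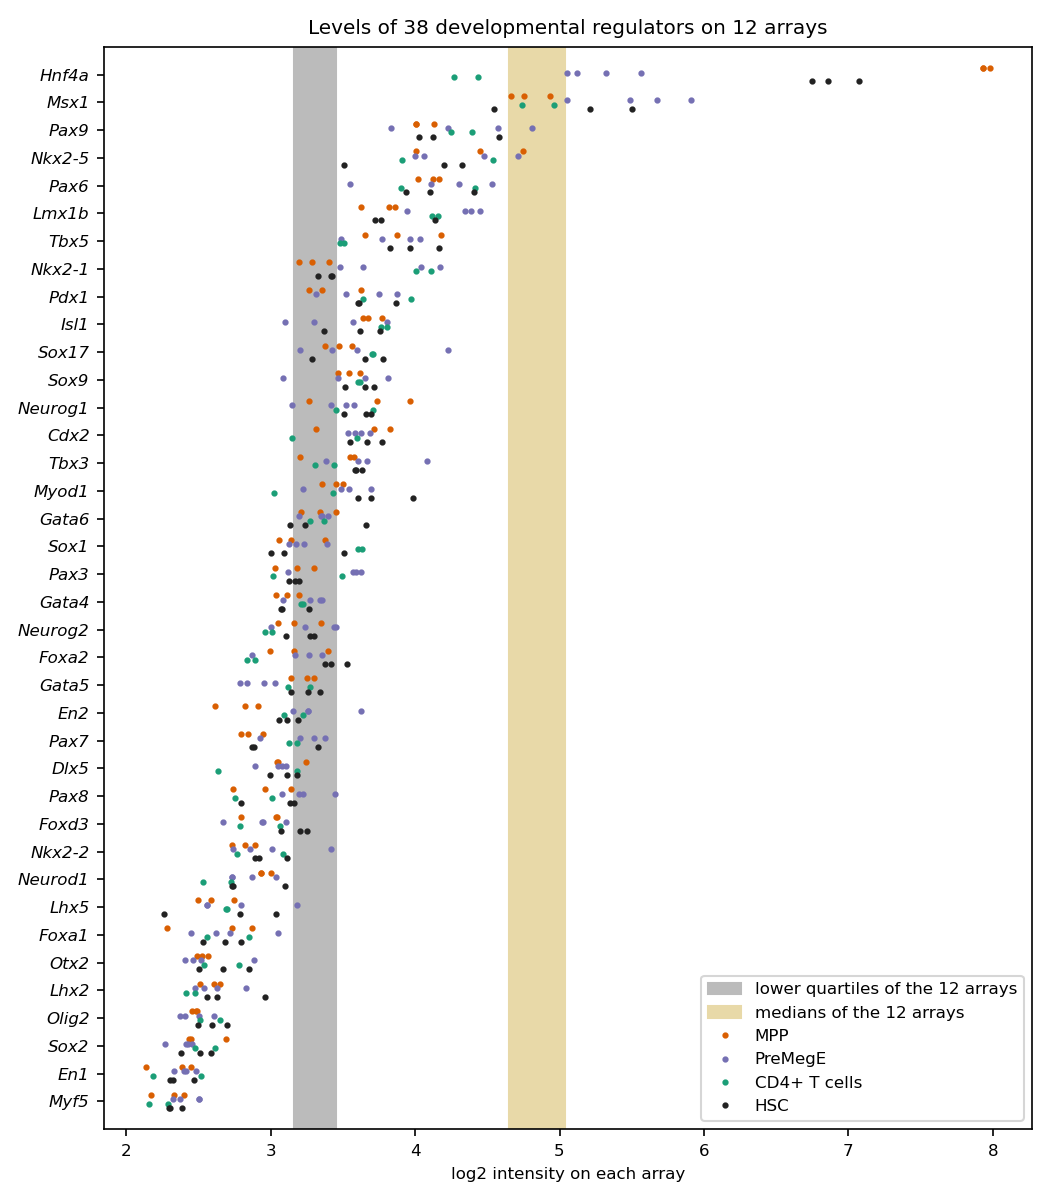
Log2 intensity of each of the 38 regulators (rows, ordered by mean) on each array, with 1 point per array coloured by population (3 MPP, 4 PreMegE, 2 CD4+ T cell and 3 HSC arrays). The grey and yellow bands span the lower quartiles (3.16 to 3.45) and the medians (4.65 to 5.04) of the arrays, and only Hnf4a has points far right of the yellow band, at 7.93 to 7.98 in MPP.

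Of 15 neural regulators, 7 were silent and all 15 were under the median on every array. Sox2, which maintains neural stem cells, lay between 2.27 and 2.69, En1, a midbrain and hindbrain factor, between 2.14 and 2.52, and Otx2, which patterns forebrain and midbrain, between 2.41 and 2.89. Olig2, the factor of oligodendrocytes and motor neurons, spanned 2.38 to 2.70 and Neurod1, a driver of neuronal differentiation, 2.53 to 3.10. The LIM-homeodomain genes Lhx2 and Lhx5 of the forebrain lay between 2.42 and 2.96 and between 2.26 and 3.18. These 7 had no array on which any of them reached its lower quartile.

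The other neural regulators lay nearer to or between the marks. Pax6, of eye and forebrain, had values of 3.55 to 4.53 and was never under the lower quartile, but its population means spanned 0.06 only. Lmx1b, of dopaminergic and serotonergic neurons, lay between 3.63 and 4.45, also never under the lower quartile. The proneural factors Neurog1 and Neurog2 spanned 3.15 to 3.96 and 2.96 to 3.45, and Isl1, of motor neurons, 3.10 to 3.81. Sox1, Nkx2-2 and En2 spanned 3.01 to 3.63, 2.73 to 3.42 and 2.61 to 3.63. Each of these 6 was under the lower quartile on some arrays and above it on others.

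Among regulators of neural crest and skeleton, Foxd3, a neural crest factor, was silent at 2.67 to 3.25, and so was Dlx5, a factor of bone and craniofacial structures, at 2.64 to 3.25. Pax3 (3.02 to 3.63) and Pax7 (2.79 to 3.38), of neural crest and muscle precursors, were under the lower quartile on 8 and 10 arrays. Sox9, which directs cartilage, lay between 3.09 and 3.81. Pax9, of teeth and vertebrae, lay between 3.83 and 4.81, above the lower quartile but under the median on every array. Msx1, a regulator of limb and craniofacial tissue, was over the median on 8 of 12 arrays and is described below.

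The muscle determination factors differed in position. Myf5 was silent with the lowest mean of all 38, at 2.16 to 2.51, and stood in the lowest 2.1% of genes on every array. Myod1 lay between 3.02 and 3.99, under the lower quartile on 1 array and under the median on all. Among 6 regulators of heart and limb, none was silent and all 6 were under the median on every array. Nkx2-5, an early heart factor, spanned 3.51 to 4.75 and Tbx5, of heart and forelimb, 3.48 to 4.18. Tbx3 lay between 3.21 and 4.09.

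The GATA factors of heart and gut also stayed low. Gata4 spanned 3.04 to 3.36, Gata5 2.79 to 3.34 and Gata6 3.13 to 3.66, and the population means of Gata6 differed by 0.02 at most. By contrast, Gata1, their relative that drives red cell and megakaryocyte genes, averaged 5.96 in MPP, 10.66 in PreMegE, 6.09 in CD4+ T cells and 9.48 in HSC. Pax8, of thyroid and kidney, lay between 2.74 and 3.45.

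Of 7 endodermal regulators, Foxa1, a pioneer factor of liver and other gut derivatives, was silent at 2.28 to 3.05. Its relative Foxa2 spanned 2.84 to 3.53. Sox17, of early endoderm, lay between 3.21 and 4.23, Cdx2, of intestine, between 3.15 and 3.83, and Pdx1, of pancreas, between 3.26 and 3.97. Nkx2-1, of lung and thyroid, spanned 3.20 to 4.17, so 6 of the 7 were under the median on every array. Hnf4a was the seventh.

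Hnf4a, a nuclear receptor that controls liver and gut genes, was the regulator with a signal far above the median in MPP and HSC, on its brightest probe set. Its log2 intensity was 7.93, 7.98 and 7.93 in MPP, 5.32, 5.56, 5.05 and 5.12 in PreMegE, 4.27 and 4.44 in CD4+ T cells, and 7.07, 6.86 and 6.75 in HSC. The 4 populations did not overlap, MPP stood highest, and CD4+ T cells, under the array median, lowest. On the arrays it ranked at the 79.3rd to 80.7th percentile of genes in MPP, the 52.7th to 57.8th in PreMegE, the 44.9th to 47.3rd in CD4+ T cells and the 66.9th to 70.9th in HSC. Msx1 averaged higher than Hnf4a in PreMegE, at 5.53 against 5.26, and in CD4+ T cells, at 4.85 against 4.35.

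Differences were tested with limma over all genes with Benjamini-Hochberg adjustment, and genes with an adjusted p under 0.05 are those called. Hnf4a was higher in MPP than in HSC by 1.05 ± 0.16 (log2 difference ± SE, limma adjusted p = 0.000377). It was lower than in HSC by -1.63 ± 0.15 in PreMegE (limma adjusted p = 8.47e-07) and by -2.54 ± 0.18 in CD4+ T cells (limma adjusted p = 1.39e-08). Each step of the order MPP, HSC, PreMegE, CD4+ T cells was called on this probe set, the last one at -0.91 ± 0.17 for CD4+ T cells minus PreMegE (limma adjusted p = 0.000455). That last step was not called with the mean of all Hnf4a probe sets (-0.33, limma adjusted p = 0.0605) or with the second brightest (-0.10, limma adjusted p = 0.789). The span between the highest and lowest population mean was 3.59, while the second widest among the 38 was 0.76.

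The Hnf4a result rests on part of its probe sets. The probe set 1427001_s_at gave the values above, and 1427000_at, at a lower signal, gave 4.39, 4.62 and 4.20 in MPP, 2.37, 2.40, 2.37 and 3.00 in PreMegE, 2.42 and 2.60 in CD4+ T cells, and 3.29, 3.72 and 3.43 in HSC. Here too MPP lay above HSC and HSC above both other populations without overlap. Over all single-symbol probe sets, its differences from HSC were 0.93 ± 0.19 in MPP (limma adjusted p = 0.00801), -0.95 ± 0.18 in PreMegE (limma adjusted p = 0.00147) and -0.97 ± 0.22 in CD4+ T cells (limma adjusted p = 0.00284). The difference of CD4+ T cells from PreMegE was -0.02 on this probe set and was not called (limma adjusted p = 0.958). The second brightest probe set, 1450447_at, read otherwise.

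On 1450447_at the values were 4.23, 4.19 and 4.52 in MPP, 5.08, 4.82, 4.54 and 4.46 in PreMegE, 4.68 and 4.57 in CD4+ T cells, and 4.82, 4.80 and 4.49 in HSC, and the populations overlapped. Its difference from HSC was -0.39 ± 0.18 in MPP (limma adjusted p = 0.246) and 0.02 in PreMegE (limma adjusted p = 0.95), neither of them called. The fourth, 1421983_s_at, lay between 2.76 and 3.79, and its difference of MPP from HSC was 0.35 (limma adjusted p = 0.344). In MPP the Hnf4a signal was over the array medians, of 4.95 to 4.97, on 1427001_s_at alone. Which transcripts each probe set binds was not tested.

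**Figure D2:**
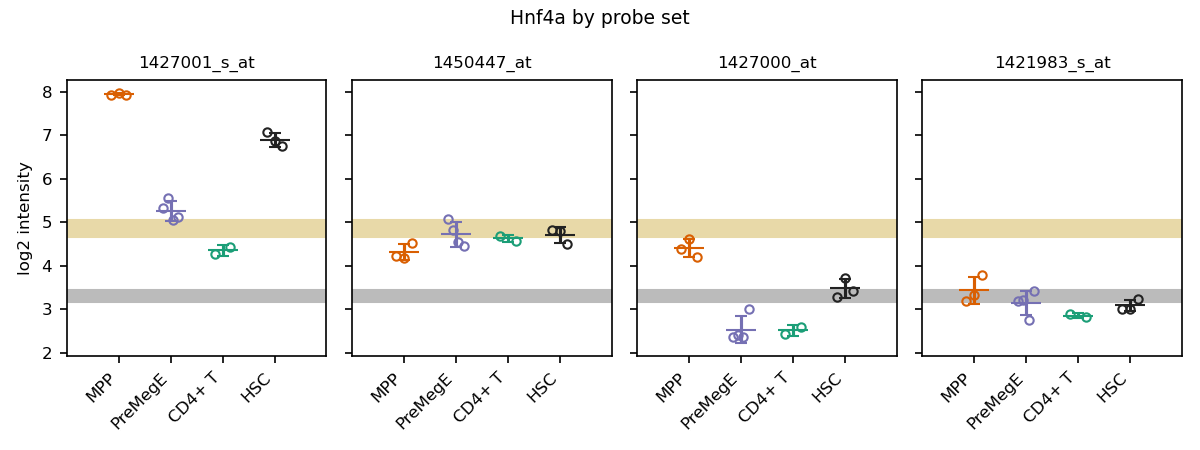
Log2 intensity of Hnf4a on each array for its 4 probe sets (panels), by population, with points for arrays and bars for mean ± SD. Grey and yellow bands span the lower quartiles and medians of the 12 arrays. On 1427001_s_at and 1427000_at MPP lies highest and HSC next, while on 1450447_at MPP averages lowest.

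Genes that Hnf4a is known to drive in liver were not called across the populations. Apoa1, an apolipoprotein, averaged 3.63 in MPP, 3.91 in PreMegE, 4.04 in CD4+ T cells and 3.80 in HSC (limma adjusted p = 0.231 over the 4 populations). The apolipoproteins Apoa2 and Apoc3 and the carrier protein Ttr had adjusted p of 0.795, 0.522 and 0.442 by the same limma test. Albumin, the main product of hepatocytes, averaged 3.72 in MPP, 3.53 in PreMegE, 3.98 in CD4+ T cells and 3.59 in HSC (limma adjusted p = 0.212). These probe sets lay under the array medians, and a p that misses the threshold does not show equal levels.

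Across the 4 populations, 5 of the 38 regulators (13.2%) were called by limma's F-test, against 50.1% of all genes. The 5 were Hnf4a, Nkx2-1, En2, Msx1 and Lmx1b. The count was 2, Hnf4a and Nkx2-1, without MPP replicate 1 or 3 or PreMegE replicate 1, 2 or 4, and 3, with En2 added, without MPP replicate 2, CD4+ T cell replicate 1 or HSC replicate 1. Lmx1b was lost without HSC replicate 3 (limma adjusted p = 0.0689). Among the genes under the median on every array, the share called was 10.5% of all genes and 3 of 36 regulators (8.33%), so the share among low regulators was near that background. By limma, 0 of the 11 silent regulators were called over the 4 populations and 0 had an unadjusted p under 0.05, beside 23 called (0.937%) and 56 at that unadjusted p among the 2455 silent genes, so the count of 0 says nothing particular to the regulators. The median span of population means was 0.31 over the regulators and 0.64 over all genes, and 37 of 38 regulators had a span under 1, against 64.8% of all genes.

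In MPP against HSC, 1 regulator was called, Hnf4a, which was higher, against 11.3% of all genes (6.38% higher and 4.93% lower). The median difference over the 38 was -0.08, over all genes -0.03, and 8 of the 38 differences were above 0. The 37 regulators that were not called differed by -0.34 to 0.39, and their unadjusted 95% intervals reached from -0.81 to 0.95. A change of 1 log2 unit in signal thus lay outside each interval. The intervals do not bound the change in RNA, since a probe set near the floor can report little of it. En2 had 2.82, 2.91 and 2.61 in MPP and 3.06, 3.11 and 3.19 in HSC, which did not overlap, but its difference of -0.34 ± 0.16 was not called (limma adjusted p = 0.207).

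In PreMegE against HSC, 1 regulator was again called, Hnf4a, which was lower, against 28.9% of all genes (11.9% higher and 17% lower). The median difference was 0.01 over the 38 and -0.01 over all genes, with 19 of 38 above 0. The 37 others differed by -0.35 to 0.44, with unadjusted 95% intervals from -0.62 to 0.92. This count depended on the arrays and their scaling. Without PreMegE replicate 3 it was 5, with Lmx1b, Msx1, Nkx2-1 and Pax3 added, and without HSC replicate 2 or PreMegE replicate 4 it was 2. With quantile normalisation it was 4, with Gata5, Lmx1b and Nkx2-1 added.

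In CD4+ T cells against HSC, 4 regulators were called, against 37.8% of all genes (17% higher and 20.8% lower). Nkx2-1 was higher, and Hnf4a, Foxa2 and Myod1 were lower. The median difference was -0.01 over the 38 and -0.06 over all genes, with 15 of 38 above 0. The 34 others differed by -0.49 to 0.42, with unadjusted 95% intervals from -0.92 to 0.84. Leaving out CD4+ T cell replicate 1 left Hnf4a alone, and leaving out HSC replicate 2 kept the count at 4, with Sox1 called and Myod1 not.

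**Figure D3:**
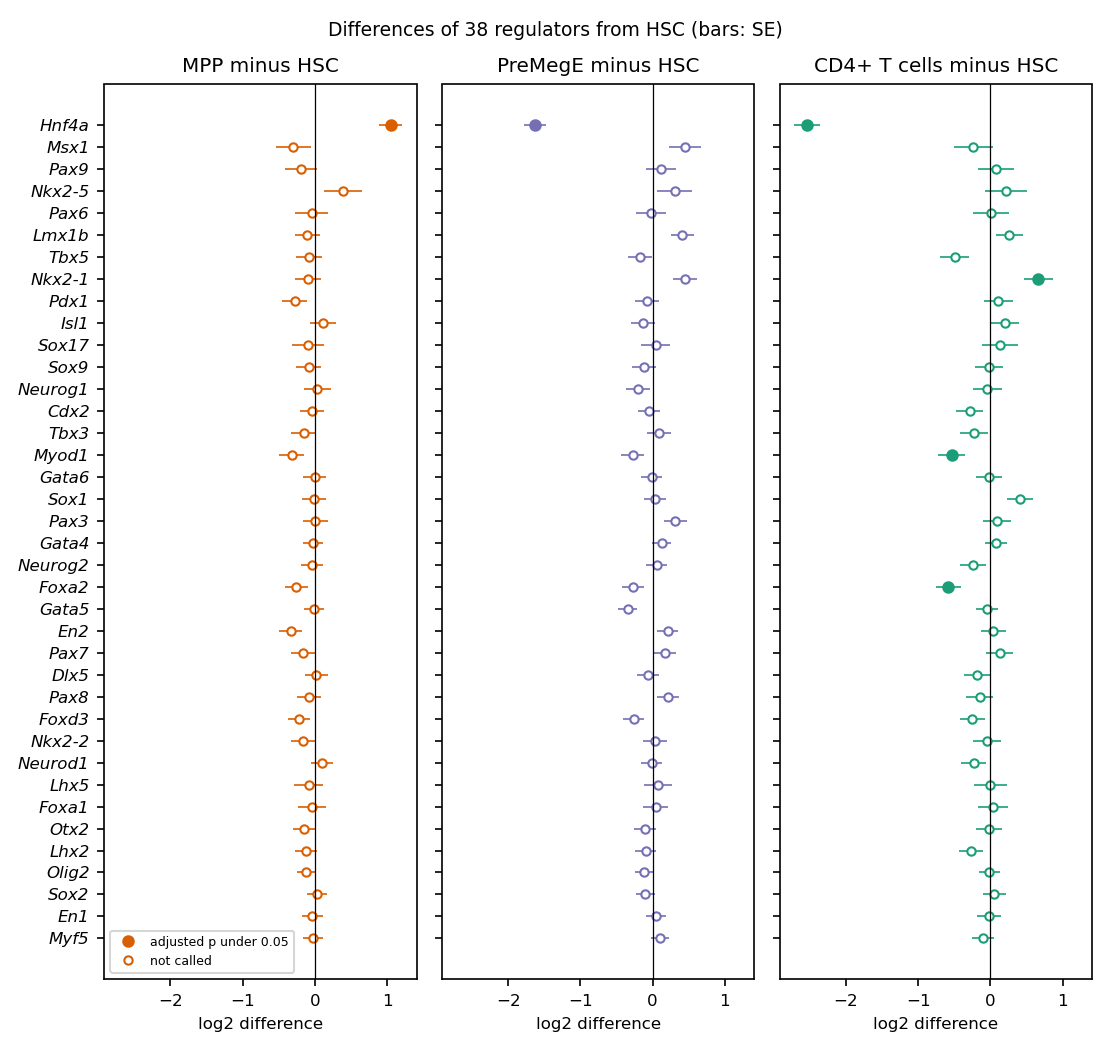
Log2 difference from HSC of each of the 38 regulators (rows) in MPP, PreMegE and CD4+ T cells (panels), with bars for the SE and filled points for an adjusted p under 0.05. Hnf4a is called in all 3 panels, at 1.05, -1.63 and -2.54, and the other filled points are Nkx2-1, Foxa2 and Myod1 in CD4+ T cells.

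Nkx2-1, which directs lung and thyroid development, had log2 intensities of 3.20, 3.40 and 3.28 in MPP, 4.04, 4.17, 3.64 and 3.48 in PreMegE, 4.11 and 4.01 in CD4+ T cells, and 3.33, 3.43 and 3.42 in HSC. PreMegE and CD4+ T cells lay above MPP and HSC without overlap, and all values were under the array medians. The difference from HSC was 0.67 ± 0.20 in CD4+ T cells (limma adjusted p = 0.0132) and 0.44 ± 0.16 in PreMegE (limma adjusted p = 0.0566). The call in CD4+ T cells was lost without their replicate 1 (limma adjusted p = 0.0801). Its lung targets Sftpc, Sftpb and Scgb1a1 and the thyroid product Tg were not called across the populations (limma adjusted p = 0.518, 0.403, 0.377 and 0.171).

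Foxa2, a pioneer factor of endoderm and floor plate, had 2.89 and 2.84 in CD4+ T cells, against 3.38, 3.42 and 3.53 in HSC. Its values were 3.40, 3.16 and 3.00 in MPP and 3.27, 3.17, 2.87 and 3.36 in PreMegE. The T cells lay under HSC without overlap, by -0.58 ± 0.18 (limma adjusted p = 0.017), although the test over 4 populations was not passed (limma adjusted p = 0.0762). The call was lost without either T cell array, at an adjusted p of 0.0582 or 0.0868 by limma.

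Myod1, the muscle determination factor, had 3.02 and 3.43 in CD4+ T cells, against 3.69, 3.99 and 3.60 in HSC, also without overlap. It had 3.45, 3.50 and 3.35 in MPP and 3.54, 3.70, 3.22 and 3.49 in PreMegE. The difference of CD4+ T cells from HSC was -0.53 ± 0.19 (limma adjusted p = 0.035). It was not called without HSC replicate 1 or 2 or CD4+ T cell replicate 1 (limma adjusted p = 0.0531, 0.125 and 0.325), nor on its second brightest probe set, which gave -0.34 (limma adjusted p = 0.133). Both genes stayed under the array medians in every population, so these differences lie within the low range of signal.

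PreMegE were also set against MPP, a comparison added after the values were seen. Of the 38 regulators, 5 were called, against 33% of all genes (13.5% higher and 19.5% lower), with En2, Lmx1b, Msx1 and Nkx2-1 higher and Hnf4a lower. The median difference was 0.05 over the 38 and 0.02 over all genes. The 33 others differed by -0.33 to 0.34. Leaving out 1 array at a time gave 2 to 8 calls, with 2 without MPP replicate 3 or PreMegE replicate 1, 3 without MPP replicate 2 or PreMegE replicate 2, and 8 without PreMegE replicate 3.

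Hnf4a fell by 2.68 in PreMegE against MPP (SE 0.15, limma adjusted p = 2e-09). Msx1 had 5.91, 5.49, 5.05 and 5.67 in PreMegE, against 4.94, 4.76 and 4.67 in MPP, and 4.74 and 4.96 in CD4+ T cells and 5.21, 5.51 and 4.54 in HSC. PreMegE lay over the array median on every array, and so did CD4+ T cells, at the 50.2nd to 53.2nd percentile of genes. PreMegE lay above MPP without overlap, by 0.74 ± 0.22 (limma adjusted p = 0.0176), and overlapped with HSC. The call was lost without MPP replicate 2 or 3 or PreMegE replicate 1 (limma adjusted p = 0.0571, 0.0716 and 0.0537). The other Msx1 probe set gave a difference of 0.04 (limma adjusted p = 0.915 over all single-symbol probe sets), so this result rests on 1448601_s_at.

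En2, a midbrain and hindbrain factor, had 3.63, 3.26, 3.16 and 3.26 in PreMegE, against 2.82, 2.91 and 2.61 in MPP, and 3.09 and 3.22 in CD4+ T cells. The PreMegE values lay above those of MPP without overlap, by 0.54 ± 0.14 (limma adjusted p = 0.00827), and the call was lost without MPP replicate 3 (limma adjusted p = 0.056). Lmx1b had 4.45, 4.39, 3.94 and 4.35 in PreMegE, against 3.82, 3.63 and 3.86 in MPP, 4.16 and 4.11 in CD4+ T cells, and 3.72, 4.14 and 3.76 in HSC. The difference of PreMegE from MPP was 0.51 ± 0.16 (limma adjusted p = 0.0204), without overlap, and was lost without MPP replicate 2 or PreMegE replicate 1 or 2 (limma adjusted p = 0.0956, 0.0553 and 0.0544). The other Lmx1b probe set gave 0.14 (limma adjusted p = 0.558 over all single-symbol probe sets), and the mean of both gave 0.33 (limma adjusted p = 0.0885). Nkx2-1 differed by 0.54 ± 0.16 (limma adjusted p = 0.0189), a call lost without MPP replicate 1 or 3 or PreMegE replicate 1 or 2 (limma adjusted p = 0.0786, 0.0589, 0.0537 and 0.0631). En2, Lmx1b and Nkx2-1 were under the array median throughout.

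The remaining comparisons called fewer regulators. In CD4+ T cells against MPP, 2 were called, against 35.5% of all genes (15.5% higher and 20% lower), with Nkx2-1 higher by 0.76 ± 0.20 (limma adjusted p = 0.0057) and Hnf4a lower by -3.59 ± 0.18 (limma adjusted p = 2.87e-10). In CD4+ T cells against PreMegE, 1 was called, Hnf4a, against 33.1% of all genes (16.3% higher and 16.8% lower). These comparisons share arrays with those above.

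The order of the regulators among themselves was similar in the 4 populations. Spearman's rho between population means over the 38 regulators was 0.91 to 0.97, and 0.90 to 0.98 over all genes, which share probe sets and their binding strength. Ranks within a population are therefore not independent between populations.

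Genes listed for other cell types also differed in signal between the sorts. Over 8 neutrophil genes the summed linear intensity was 140 to 296 in MPP, 628 to 2420 in PreMegE, 102 to 157 in CD4+ T cells and 445 to 4227 in HSC. Over 12 genes of endothelium and stroma it was 475 to 504 in MPP, 770 to 1037 in PreMegE, 129 to 137 in CD4+ T cells and 600 to 723 in HSC. Over the median on every array of a population were 2 of the 8 neutrophil genes in MPP, 6 in PreMegE, 0 in CD4+ T cells and 4 in HSC, and 3 of the 12 endothelial and stromal genes in MPP, 4 in PreMegE, 1 in CD4+ T cells and 5 in HSC. By these sums PreMegE and HSC stood above CD4+ T cells. The share of all genes over the median on every array of a population was not taken, so the counts here and below have no background and show no excess. The endothelial and stromal sums rested on a few genes. Bgn, Tek, Pdgfrb and Col1a2 averaged 8.05, 7.24, 6.55 and 5.45 in HSC, and 4.47, 6.70, 8.92 and 6.96 in PreMegE. Under the median on every array were 7 of the 12. Among them was Cdh5, at 3.59 in CD4+ T cells, 3.30 in HSC and 3.18 in PreMegE. Over 9 macrophage genes it was 168 to 177 in MPP, 119 to 155 in PreMegE, 238 to 359 in CD4+ T cells and 105 to 308 in HSC. Over 7 B cell genes it was 173 to 212 in MPP, 149 to 198 in PreMegE, 332 to 379 in CD4+ T cells and 166 to 271 in HSC. Over the median were 1 of the 9 macrophage genes in MPP, 0 in PreMegE, 4 in CD4+ T cells and 0 in HSC, and 2 of the 7 B cell genes in MPP, 2 in PreMegE, 5 in CD4+ T cells and 1 in HSC. The part of such cells in the levels of Hnf4a and of the other regulators was not tested.

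Genes made by the tissues that these regulators specify were low as well. Of 35 measured products, such as muscle, lens, lung and pancreas proteins, 27 were under the median on every array, against 40.4% of all genes. Silent were 4, against 13.5% of all genes, so that count was not above the share of all genes. Their median level was 3.83 in MPP, 3.86 in PreMegE, 3.98 in CD4+ T cells and 3.80 in HSC. Over the median on every array were Mbp, a myelin protein gene, Nes, an intermediate filament gene, and Ins2, an insulin gene. Mbp averaged 9.07 in MPP, 9.68 in PreMegE, 10.07 in CD4+ T cells and 9.31 in HSC. Nes averaged 5.75 in MPP, 5.72 in PreMegE, 5.33 in CD4+ T cells and 6.04 in HSC, and Ins2 5.17 in MPP, 5.26 in PreMegE, 5.40 in CD4+ T cells and 5.09 in HSC. Mitf, a melanocyte factor that mast cells also use, averaged 6.63 in MPP, 4.45 in PreMegE, 4.58 in CD4+ T cells and 6.17 in HSC, and fell by 1.72 in PreMegE against HSC (SE 0.23, limma adjusted p = 2.98e-05).

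Regulators of blood made the contrast. Of 29 measured, 1 was silent, against 13.5% of all genes, and 2 were under the median on every array, against 40.4%. Across the populations 25 were called, against 50.1% of all genes. Their median level was 8.42 in MPP, 8.27 in PreMegE, 4.96 in CD4+ T cells and 8.61 in HSC, and their median span of population means was 4.63.

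Genes of the Polycomb and Trithorax machinery were mostly well above the median in all 4 populations. Of 26 measured Polycomb and Trithorax genes, 22 were over the median on every array. Among the 14452 genes with a promoter window and a probe set, 6060 were. Under it on every array were 2, Pcgf1 and Pcgf2, against 40.4% of all genes. Across the populations 20 were called, against 50.1% of all genes. Ezh2, the enzyme that places H3K27me3, averaged 10.21 ± 0.14 in MPP, 10.26 ± 0.16 in PreMegE, 8.14 ± 0.14 in CD4+ T cells and 9.81 ± 0.09 in HSC (SD, n = 3, 4, 2 and 3). It was lower in CD4+ T cells than in HSC by -1.67 ± 0.17 (limma adjusted p = 7.16e-07) and higher in PreMegE by 0.44 (limma adjusted p = 0.0252). Its partners Eed and Suz12 averaged 9.33 and 9.85 in MPP, 9.28 and 9.90 in PreMegE, 9.73 and 9.18 in CD4+ T cells, and 9.47 and 9.60 in HSC. Ezh1, its relative on the same list, went the other way. It averaged highest in CD4+ T cells, at 8.99, and was higher there than in HSC by 0.99 ± 0.18 (limma adjusted p = 0.000329). The median over the 38 regulators was 3.22 in CD4+ T cells and 3.24 in HSC. Both lie close to the lower quartile of the arrays, where a change in RNA can go unseen. Whether the level of these enzymes bears on the regulators was not tested.

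**Figure D4:**
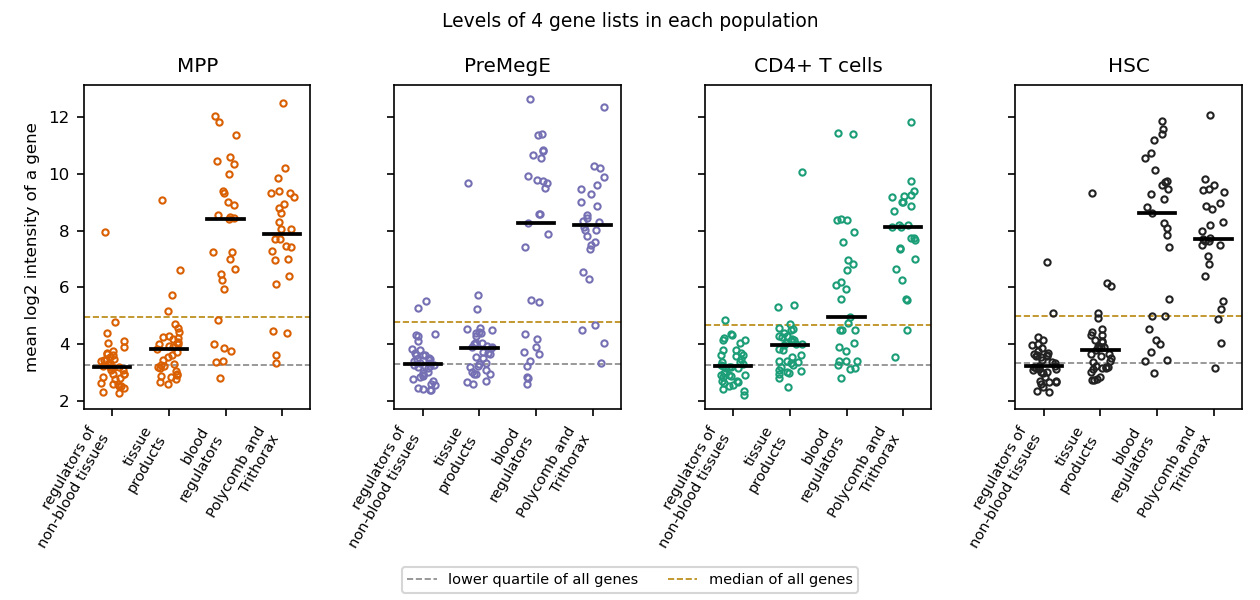
Mean log2 intensity of each gene (points) in MPP, PreMegE, CD4+ T cells and HSC (panels) for the 38 regulators, 35 tissue products, 29 blood regulators and 26 Polycomb and Trithorax genes, with bars for list medians and dashed lines for the lower quartile and median of all genes. The median of the regulators lies between 3.19 and 3.30 in each population, while that of the Polycomb and Trithorax genes lies between 7.71 and 8.21.

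Promoter windows of the regulators were CpG-rich about as often as those of all genes, and those of silent regulators more often than those of silent genes, which is given as a count with no test. A window counted as CpG-rich at a GC content of at least 50% and an observed over expected CpG ratio of at least 0.6, and a gene with several windows was read by the one with the highest ratio. The motif counted was CG, which reads the same on both strands and was present in 98.3% of all windows. By this measure 18 of 28 regulators with a window (64.3%) were CpG-rich, against 57.3% of 14452 genes. The 28 include Pax2, which was CpG-rich but had no value on the arrays, while the 14452 genes all had a probe set. Of the 9 silent regulators with a window, 8 were CpG-rich (88.9%), whereas of 1875 silent genes overall 427 were (22.8%). Among genes over the median on every array the share was 80.7%.

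The median number of CG dinucleotides in a window was 23 over the regulators, 18 over all genes and 6 over all silent genes. Among silent regulators, Lhx2 had 34 with a ratio of 0.89, En1 23 with 0.95, Foxa1 26 with 0.93 and Neurod1 26 with 0.84. The exception was Myf5, with 3 and a ratio of 0.16. Hnf4a, the regulator with the highest signal on any array, had 4 at each start, with ratios of 0.18 and 0.16. Of all genes, 16.7% had 4 or fewer. Of 28 tissue products, 6 were CpG-rich (21.4%), and of 25 blood regulators, 17 (68.0%). These are properties of the reference sequence, and methylation and histone marks of these windows were not analysed here.

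**Figure D5:**
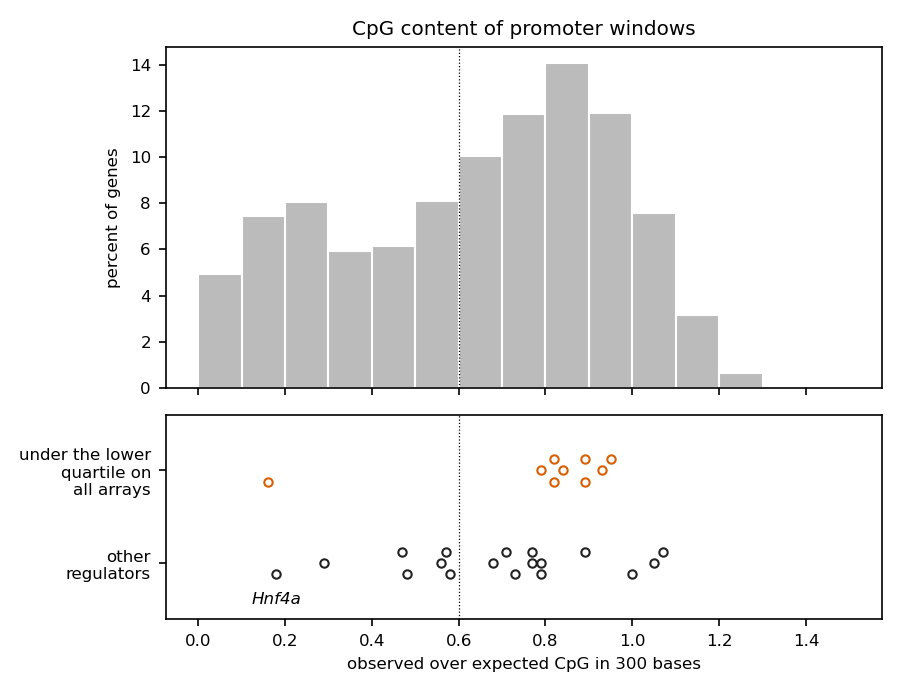
Observed over expected CpG ratio in promoter windows of 300 bases, as the share of 14452 genes per bin (top) and for single regulators (bottom). The lower panel shows the regulators with both a window and a probe set, so Pax2 is left out. The dotted line lies at 0.6. The regulators under the lower quartile on all arrays lie right of the line in 8 of 9 cases, and Hnf4a lies at 0.18.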

How the data were processed

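RNA levels of 12 arrays were read from the deposited intensity of each probe set, which the authors obtained by RMA according to the submitters' processing notes. The deposited values were positive with array medians of 14.4 to 15.6, so they were on a linear intensity scale, and log2 was taken here first, as the design foresaw for that case. No further normalisation or filter was applied, and no detection limit. Of 45101 probe sets, 64 were controls and left out, 34945 had a single symbol, 932 several and 9160 none, by the platform annotation. RefSeq (GRCm38.p6) matched 34741 of the single symbols and changed 0. Groups came from the titles, and 1 PreMegE array titled as replicate 4 is described as replicate 3. A mean per population was fitted with limma 3.58.1 in R 4.3.3 to all arrays and 18193 genes, followed by eBayes, with two-sided p-values adjusted by Benjamini and Hochberg's method. The fit was tested on simulated data.

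The genes and lists were chosen with earlier results of these data known. Every regulator is accounted for, and full values go to those called by the F-test or over the array median on every array of a population. Genes of other lists are named where they pass that median, up to 4 per list with the widest span, and beyond that rule Foxa2, Myod1, the known targets, cell markers and Polycomb subunits were chosen after their values were seen. The number of arrays limits the precision. Correlations of same-numbered arrays, taken on deviations from the population means, ran from -0.119 to 0.413, the highest between HSC and PreMegE replicate 3. They were not set beside arrays of different number, so they do not settle whether replicate numbers pair the arrays. The main fit treated the arrays as unpaired. CpG content was counted with python 3.11.15 and pandas 2.3.3 in RefSeq windows. Alternatives covered the choice of probe set, normalisation, an intensity trend, the lowest genes, the quantiles used, averaged PreMegE replicates 3 and 4, the replicate block, and each array left out.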

Additional observations from a re-analysis of the deposited data

Results flagged for a closer look

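Pax3, a regulator of neural crest and muscle precursors, was at a log2 intensity of 3.12 on PreMegE replicate 3, against 3.57 to 3.63 on the other PreMegE arrays. The gap of that array to its nearest neighbour exceeded the 95% critical value of Dixon's test for a group of 4. It was the only such value among 38 regulators tested in PreMegE, where chance flags about 1 in 20 groups. The same array had a lower quartile over all genes of 3.16, against 3.35 to 3.40 on the other PreMegE arrays. The other populations, with 2 or 3 arrays each, were not tested in this way.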

How the results depend on the processing

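With the second brightest probe set of each gene, Hnf4a turned direction in MPP against HSC (-0.39, limma adjusted p = 0.254), PreMegE against HSC (0.02, 0.953), PreMegE against MPP (0.41, 0.0876) and CD4+ T cells against MPP (0.31, 0.294), and the counts of called regulators were 2 over the 4 populations, 0 in MPP and 0 in PreMegE against HSC, 2 in CD4+ T cells against HSC and 2 in PreMegE against MPP. The cause was not tested. At an unadjusted p under 0.05, limma then gave 2 regulators in MPP against HSC and 1 in PreMegE against HSC. In PreMegE against HSC the count was 2 with the mean of all probe sets, 4 with quantile normalisation, 4 with cyclic loess, 2 with an intensity trend and 3 with PreMegE replicates 3 and 4 averaged. With the replicate number as a block, the count in that comparison was 2, against 4 over the 4 populations, 1 in MPP against HSC, 4 in CD4+ T cells against HSC and 5 in PreMegE against MPP. Leaving out 1 array at a time gave 2 to 6 calls over the 4 populations, 1 in every case for MPP against HSC, 1 to 5 for PreMegE against HSC, 1 to 5 for CD4+ T cells against HSC and 2 to 8 for PreMegE against MPP. En2, Lmx1b and Msx1 lost the call over the 4 populations in several of these, whereas Nkx2-1 kept it in all and Hnf4a in all but that with the second brightest probe set. Of 38 regulators, 7 instead of 11 were under the lower quartile on all arrays with quantiles over all probe sets, and 17 were when population means were used. Between 25 and 36 were under the median. Low signal limits what can be seen, since a probe set near the array's floor can report little of a change in RNA.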
